A study of Homo sapiens with 4 samples.

Results

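The nuclear genes for the subunits of the respiratory chain and of ATP synthase were described in the human pancreatic cancer line PANC-1 after knockdown of SIRT1. Members were chosen by gene symbol alone, as the NDUFA, NDUFB, NDUFC, NDUFS, NDUFV, SDHA to SDHD, UQCR, CYC1, COX and ATP5 families. This gave 86 of the 16878 genes in the tables. Of these, 82 reached a mean of at least 1 FPKM (fragments per kilobase of transcript, scaled to library size) over the 4 libraries and were tested, and COX6A2, COX7A1, NDUFA4L2 and UQCRHL did not. There were 2 libraries labelled Control and 2 labelled siSIRT1, in which small interfering RNA was used to deplete SIRT1, an NAD-dependent deacetylase. All came from the same cell line at 48 h. The comparison asks which transcripts change when SIRT1 is depleted. The labels do not say that libraries of a group came from separate cultures, so p-values measure only the spread between these samples, which may be technical.

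The respiratory chain sits in the inner mitochondrial membrane. Complex I takes electrons from NADH and complex II from succinate, complex III passes them from ubiquinol to cytochrome c, and complex IV hands them to oxygen. Complexes I, III and IV pump protons, and complex V, the ATP synthase, lets protons flow back to make ATP. Each complex except complex II also holds subunits encoded by mitochondrial DNA, which were not analysed here. The nuclear genes lie on many chromosomes, and the factors known to bind their promoters include NRF1, the ETS factor GABP, YY1 and the estrogen-related receptors.

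Promoter sequences from RefSeq (build GRCh38.p14), from 250 bases before to 50 bases after each start, were matched to 68 of the 86 genes, which had 82 promoters. Windows of 30 bases are shown as examples of promoters that hold an NRF1 or ETS motif, both in genes that rose with siSIRT1 and in genes that did not pass the test. Capitals mark the match to the NRF1 motif GCGCANGCG or the ETS motif CCGGAAGT, on either strand, and each window is read 5′ to 3′ on the strand of its gene.
NDUFB4, NRF1 motif, chr3:120596167-120596196, plus strand, rose: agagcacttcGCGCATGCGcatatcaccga
ATP5C1, NRF1 motif, chr10:7788145-7788174, plus strand, rose: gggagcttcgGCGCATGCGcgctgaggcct
SDHD, NRF1 motif, chr11:112086753-112086782, plus strand, rose: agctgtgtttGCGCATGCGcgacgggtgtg
NDUFA12, NRF1 motif, chr12:95003794-95003823, minus strand, rose: acctagctctGCGCACGCGcagagccacca
UQCRFS1, NRF1 motif, chr19:29213162-29213191, minus strand, rose: cgcctcctcgCGCCTGCGCcgtggttggaa
NDUFA3, NRF1 motif, chr19:54102675-54102704, plus strand, did not pass: ctgcgcgagtGCGCACGCGcaggctccgaa
SDHA, NRF1 motif, chr5:218144-218173, plus strand, did not pass: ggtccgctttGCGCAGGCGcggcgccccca
UQCRH, ETS motif, chr1:46303640-46303669, plus strand, rose: gagtgtgccgcACTTCCGGccagatcgccg
COX5B, ETS motif, chr2:97646014-97646043, plus strand, rose: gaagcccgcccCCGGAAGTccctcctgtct
NDUFS1, ETS motif, chr2:206159584-206159613, minus strand, did not pass: aggctggggccACTTCCGGcggaactgcgg

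The NRF1 motif was found in 21 of the 82 promoters (25.6%), against 7.52% of all 35116 promoters of this length and 12.9% of those of tested genes. The ETS motif was found in 11 (13.4%), against 4.14% and 7.60%. The YY1 motif AAGATGGCG was found in 10 (12.2%), against 1.75% and 3.51%. The motif of the estrogen-related receptors, TCAAGGTCA, was found in 1 (1.22%), against 0.353% and 0.165%. These are letter matches on both strands, in which a window can hold more than 1 motif, and not measured binding. At least 1 of the NRF1, ETS and YY1 motifs was present in 35 of the 82 promoters (42.7%), and so most held none. It was present in 27 of 62 promoters (43.5%) of genes that rose and in 8 of 17 promoters (47.1%) of tested genes that did not pass. The difference between these shares was not tested.

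SIRT1 itself measured 10.5 and 10.3 FPKM in the Control libraries, against 1.80 and 2.05 after knockdown. Its mean in siSIRT1 was 18.6% of Control (log2 fold change −1.96 ± 0.11 SE, adjusted p = 1.33e-05). Estimated depths were 8680000 to 9060000 reads per library, and 1 FPKM on a transcript of 1000 bases stands for about 8.3 reads. The keratins KRT8, KRT18 and KRT19, markers of epithelial cells, were at 313 FPKM or more in every library, and KRT7 was at 2.89 to 4.04 FPKM. KRT18 (log2 fold change 0.26, adjusted p = 0.0350) and KRT19 (0.25, adjusted p = 0.0178) rose, and KRT8 did not pass (0.25, adjusted p = 0.0513). Vimentin, VIM, a filament protein of mesenchymal cells also made by this line, fell from 2198 and 2049 to 1503 and 1427 FPKM (−0.53 ± 0.08 SE, adjusted p = 0.00126). PECAM1, CDH5, PRSS1, ACTA2 and PDGFRB, markers of other cell types, were below 1 FPKM throughout. The leukocyte marker PTPRC stood at 0.97 to 1.29 FPKM, and CD68, a lysosomal protein used as a macrophage marker, fell from 63.0 and 60.8 to 42.3 and 39.1 FPKM (adjusted p = 3.0e-04). The part of these changes in the results was not tested.

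Transcripts of the respiratory chain were higher in siSIRT1 in all 5 complexes. Of the 82 tested genes, 59 (72.0%) rose at an adjusted p under 0.05, 0 fell and 23 did not pass, where 24.0% of all 12191 tested genes rose and 13.1% fell. At an unadjusted p under 0.05, 63 were higher and 0 lower, and the share of all tested genes at that threshold was not counted. The median log2 fold change was 0.36, a 1.29-fold difference, with a range from −0.06 to 0.95, against a median of 0.07 over all tested genes. Both siSIRT1 libraries lay above both Control libraries for 73 genes (89.0%), against 43.8% of all tested genes, and below them for 0, against 25.2%. A fold above 1.2 was reached by 53 genes and a fold above 1.5 by 16, where 29.2% and 8.55% of all tested genes did so. Together the 82 genes made up 1.72% and 1.71% of all FPKM in Control, and 2.20% and 2.10% in siSIRT1. In bulk RNA, more cells that express these genes and more of their RNA per cell cannot be told apart.

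**Figure D1:**
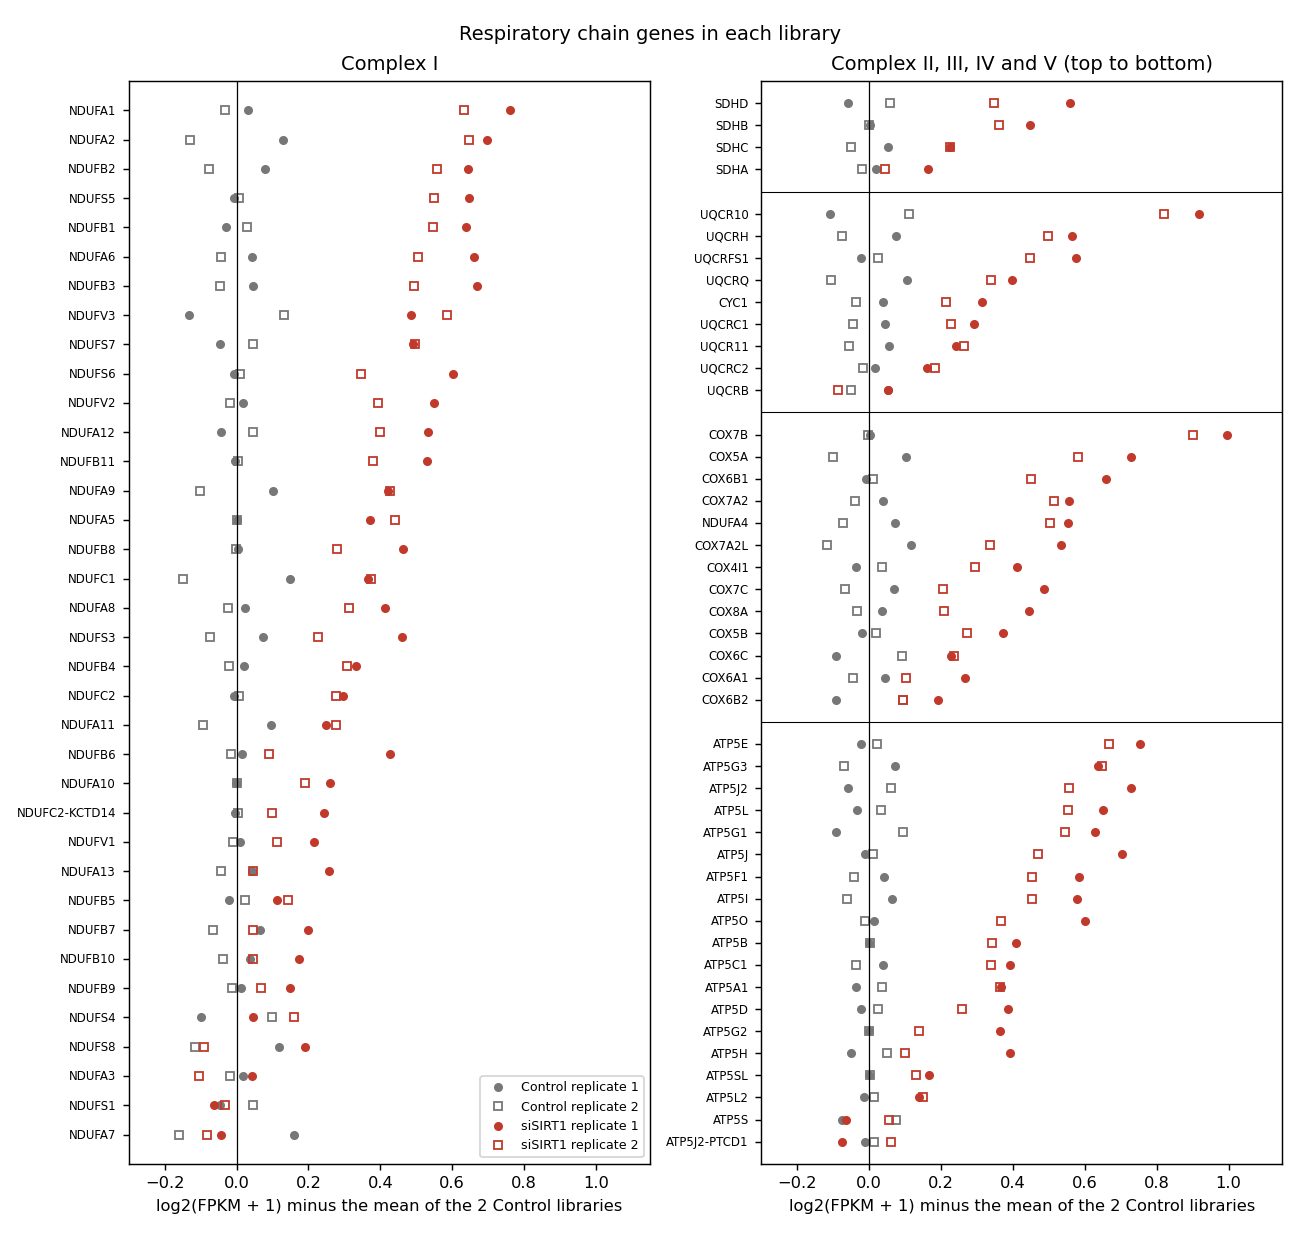
Each row is 1 tested gene (1 gene is not shown), grouped by complex and ordered by its change. The x axis gives log2(FPKM + 1) in each library minus the mean of the 2 Control libraries, grey for Control and red for siSIRT1, with a filled circle for replicate 1 and an open square for replicate 2. Both red symbols lie to the right of both grey symbols in most rows, with COX7B and UQCR10 farthest to the right.

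The number of genes that rose moved with the processing. It was 45 with median-of-ratios scaling (16.6% of all genes rose and 16.8% fell), 41 with the trend on transcript length removed and 39 with the trend on coding length removed. The last of these was chosen after seeing the data. Without Control replicate 2 the median log2 fold change of the 82 genes was 0.33, against 0.08 over all tested genes. With the transcript length trend removed, 4 of the genes were called lower (18.8% of all genes rose and 19.6% fell), and with the coding length trend removed 3 were (17.4% and 17.8%). There were 35 genes that rose in the main comparison and in all 12 alternatives that kept every library, and 33 of them also rose in each of the 4 fits without 1 library. The share of all tested genes that kept their call in this way was not counted. The other 24 genes that rose lost their call in at least 1 of the 12 alternatives. Of the genes named here, these were NDUFB4, NDUFC2, NDUFS3, NDUFA5, SDHC, CYC1, UQCRC1, UQCRC2, COX4I1, COX5B, COX7A2L, ATP5D, ATP5G2 and ATP5I. They also included COX6C, COX7C, COX8A and UQCR11, which are named further below. ATP5B lost its call only in the fits without a Control library. The siSIRT1 libraries also differed from each other, since siSIRT1 replicate 1 was above replicate 2 for 66 of the 82 genes (80.5%), against 48.5% of all tested genes. The share was 72.3% for other genes with transcripts under 600 bases and 28.3% for those of 4000 bases or more. It was 94.4% for cytosolic ribosomal protein genes and 76.3% for proteasome subunit genes.

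Complex I, the NADH dehydrogenase, had 37 tested entries, of which 23 rose (62.2%, against 24.0% of all tested genes). The median log2 fold change of the complex was 0.34. Its core subunits carry the flavin and the iron-sulfur clusters or line the ubiquinone site. NDUFS7, an iron-sulfur subunit next to the ubiquinone site, measured 52.9 and 56.4 FPKM in Control, against 77.3 and 77.5 in siSIRT1 (log2 fold change 0.49 ± 0.06 SE, adjusted p = 4.89e-04). NDUFV2, which holds an iron-sulfur cluster near the site of NADH oxidation, went from 54.9 and 53.5 to 79.8 and 71.4 FPKM. NDUFS3 was at 45.4 and 40.9 FPKM in Control, against 59.7 and 50.6 in siSIRT1. All 3 rose, and for each the groups did not overlap.

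The core subunits NDUFV1, NDUFS8 and NDUFS1 did not pass. NDUFV1, which binds NADH and the flavin, stood at 108 and 106 FPKM in Control, against 124 and 116 in siSIRT1 (adjusted p = 0.0651). Its groups lay apart by a small margin. NDUFS8 measured 137 and 117 FPKM in Control, against 145 and 119 in siSIRT1, and the sign of its log2 fold change of 0.05 turned under all 4 scalings between libraries. NDUFS1, the largest iron-sulfur subunit of the complex, was at 26.8 and 28.6 FPKM against 26.4 and 27.0 (log2 fold change −0.05, 95% interval −0.21 to 0.11). In NDUFS8 and NDUFS1 the groups overlapped.

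The accessory subunits surround this core and are needed for its assembly and stability. Of 29 accessory subunits 20 rose (69.0%, against 24.0% of all tested genes), with a median log2 fold change of 0.37. NDUFA1, a small protein of the membrane arm encoded on the X chromosome, measured 127 and 121 FPKM in Control, against 211 and 193 in siSIRT1 (log2 fold change 0.70 ± 0.06 SE, adjusted p = 1.25e-04). NDUFA2 went from 37.2 and 30.9 to 55.7 and 53.7 FPKM (0.67 ± 0.09 SE, adjusted p = 6.57e-04). These were the 2 largest rises of the complex. NDUFB2, NDUFS5, NDUFB1, NDUFA6 and NDUFB3 also rose, with log2 fold changes from 0.58 to 0.60. NDUFA5 was the weakest of the tested subunits, at 1.86 FPKM in both Control libraries and 2.70 and 2.88 in siSIRT1 (adjusted p = 0.0339).

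Among the accessory subunits, NDUFA7 and NDUFA3 had the lowest changes. NDUFA7 was at 49.3 and 39.3 FPKM in Control, against 42.7 and 41.5 in siSIRT1 (log2 fold change −0.06, 95% interval −0.29 to 0.16). NDUFA3 was at 158 and 154 FPKM against 160 and 145 (−0.03, 95% interval −0.18 to 0.12). The groups overlapped for both, and both were called lower when either length trend was removed. NDUFC2-KCTD14, a readthrough of NDUFC2 into its neighbour and not a subunit of its own, stood at 24.2 and 24.4 FPKM against 29.0 and 26.1. It shares sequence with NDUFC2, so the split of reads between them is uncertain.

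Complex II, succinate dehydrogenase, is encoded by 4 nuclear genes, and 3 of them rose, where 24.0% of all tested genes did. The membrane anchor SDHD measured 41.6 and 45.1 FPKM in Control, against 64.3 and 55.4 in siSIRT1 (log2 fold change 0.45 ± 0.08 SE, adjusted p = 0.00336). The iron-sulfur subunit SDHB went from 74.3 and 74.2 to 101 and 95.7 FPKM (0.40 ± 0.06 SE, adjusted p = 0.00112). The groups lay well apart for both. The anchor SDHC rose from 30.2 and 28.0 to 34.1 and 34.1 FPKM (adjusted p = 0.0321). The flavoprotein SDHA, which oxidizes succinate, was at 61.1 and 59.5 FPKM against 67.6 and 62.2 and did not pass (0.10, 95% interval −0.05 to 0.25).

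Complex III, the cytochrome bc1 complex, had 9 tested genes, with a median log2 fold change of 0.26. Of these 8 rose (88.9%, against 24.0% of all tested genes). UQCR10, a small subunit, measured 23.6 and 27.6 FPKM in Control, against 49.0 and 45.8 in siSIRT1 (0.87 ± 0.09 SE, adjusted p = 1.61e-04). UQCRH, the hinge protein at the docking site of cytochrome c, went from 127 and 115 to 179 and 171 FPKM (0.53 ± 0.07 SE). Of the subunits that carry electrons, the Rieske iron-sulfur protein UQCRFS1 rose from 91.3 and 94.4 to 139 and 127 FPKM (0.51 ± 0.06 SE). Cytochrome c1, CYC1, rose less, from 144 and 136 to 174 and 163 FPKM (0.26 ± 0.06 SE). The core proteins UQCRC1 (0.26) and UQCRC2 (0.17) also rose. With median-of-ratios scaling CYC1, UQCRC1 and UQCRC2 did not pass (adjusted p = 0.0998, 0.0959 and 0.341), nor with the transcript length trend removed (0.124, 0.0806 and 0.489). UQCRB, a small subunit at the ubiquinone site, was at 12.4 and 11.5 FPKM against 12.4 and 11.2, with overlapping groups (−0.02, 95% interval −0.23 to 0.20).

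Complex IV, cytochrome c oxidase, had 13 tested genes. Of these 11 rose (84.6%, against 24.0% of all tested genes), with a median log2 fold change of 0.35. In all 13 both siSIRT1 libraries lay above both Control libraries, as in 43.8% of all tested genes. COX7B, a small membrane subunit encoded on the X chromosome, had the largest change of the whole set, from 133 and 132 FPKM in Control to 265 and 248 in siSIRT1. Its log2 fold change was 0.95 ± 0.06 (SE, adjusted p = 1.87e-05). It rose under every alternative, with a log2 fold change of 0.84 when the trend on transcript length was removed and 0.62 when that on coding length was. COX5A, a subunit on the matrix side, went from 108 and 93.5 to 167 and 151 FPKM (0.66 ± 0.08 SE). COX4I1 and COX5B, also nuclear-encoded regulatory subunits, rose from 149 and 157 to 204 and 188 FPKM and from 188 and 193 to 247 and 230 FPKM. COX6A1 (adjusted p = 0.0764) and COX6B2 (adjusted p = 0.287) did not pass.

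**Figure D2:**
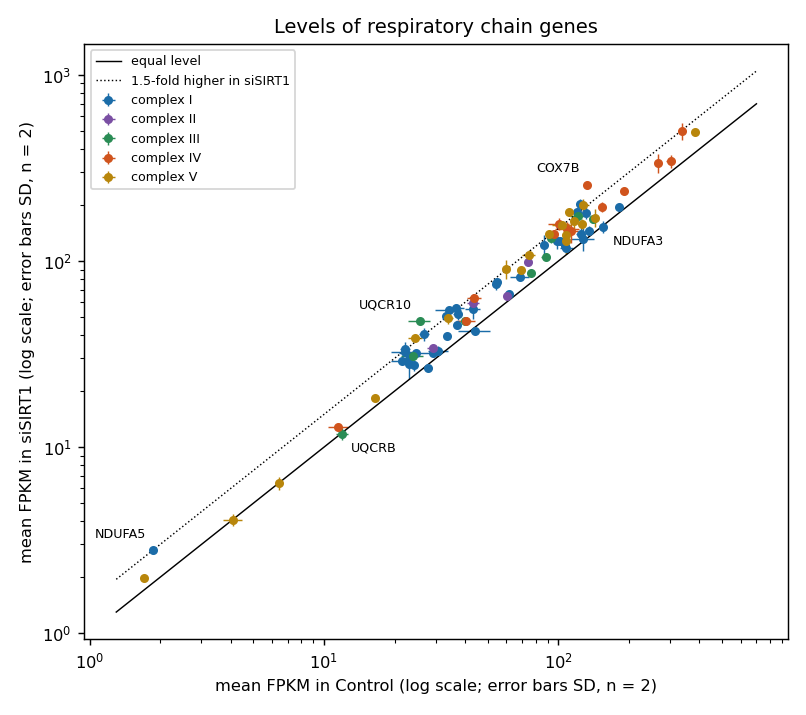
Each point is 1 tested gene, with its mean FPKM in Control on the x axis and in siSIRT1 on the y axis, both on log scales, coloured by complex, with error bars of 1 SD (n = 2). The solid line marks equal levels and the dotted line a 1.5-fold higher level in siSIRT1, and most points lie between the lines, with COX7B and UQCR10 above the dotted one.

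Several subunits of complex IV have a second gene used in other tissues. COX6A1 made up at least 99.9% of the COX6A sum in every library, and its muscle form COX6A2 was listed at 0 in 3 libraries. COX7A2 made up 99.0% to 99.8% of the sum with the muscle form COX7A1. COX6B1 made up 96.5% to 97.6% of the sum with COX6B2, known from testis, and rose from 335 and 340 to 534 and 462 FPKM (0.56 ± 0.08 SE). NDUFA4, first described in complex I and now placed in complex IV, made up 97.6% to 98.7% of the sum with NDUFA4L2 and rose from 46.0 and 41.5 to 64.6 and 62.4 FPKM. COX7A2L, which helps join complexes III and IV into supercomplexes, rose from 118 and 100 to 158 and 138 FPKM. The common forms thus held these families in both groups, while COX4I2 and COX7B2 were not analysed here.

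Complex V, the ATP synthase, had 19 tested entries, with a median log2 fold change of 0.37. Of these 14 rose (73.7%, against 24.0% of all tested genes). All 5 subunits of its catalytic head and central stalk were among them. The beta subunit ATP5B, which holds the catalytic sites, was the most abundant gene of the set in Control, at 382 and 383 FPKM, and measured 508 and 485 FPKM in siSIRT1 (0.37 ± 0.06 SE, adjusted p = 0.00181). The alpha subunit ATP5A1 went from 105 and 110 to 139 and 139 FPKM. The gamma subunit ATP5C1, the rotating shaft, went from 71.1 and 67.4 to 91.2 and 87.8 FPKM. The log2 fold changes of these 3 were 0.37 each. The delta subunit ATP5D was at 124 and 128 FPKM against 165 and 151 (0.32). The epsilon subunit ATP5E rose more, from 110 and 113 to 189 and 178 FPKM (0.71 ± 0.06 SE, adjusted p = 7.57e-05).

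Subunit c of the membrane ring is made from 3 genes that yield the same mature protein. ATP5G3 rose from 25.8 and 23.3 to 38.7 and 38.9 FPKM (0.64 ± 0.07 SE). ATP5G1 rose from 97.1 and 111 to 161 and 152 FPKM (0.59 ± 0.07 SE), and ATP5G2 from 143 and 143 to 184 and 158 FPKM (0.25 ± 0.08 SE). Summed over the 3 genes, the level was 266 and 277 FPKM in Control, against 384 and 348 in siSIRT1. ATP5G2 held 53.8% and 51.7% of this sum in Control, against 48.0% and 45.3% in siSIRT1. The change of this share was not tested.

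Of the membrane and dimer subunits, ATP5J2, ATP5L and ATP5I rose, with log2 fold changes of 0.64, 0.60 and 0.52. Of the peripheral stalk, which holds the head still, ATP5J, ATP5F1 and ATP5O rose (0.59, 0.52 and 0.48), and ATP5H did not pass (104 and 111 FPKM against 141 and 115, adjusted p = 0.0688). The other 4 entries of the complex did not pass and are not subunits of the enzyme, or are copies or readthroughs of one. They are ATP5S, ATP5SL, ATP5L2 and ATP5J2-PTCD1, with 1.68 to 18.6 FPKM in any library and log2 fold changes from −0.01 to 0.15. Without these and NDUFC2-KCTD14, a choice made after seeing the data, 59 of 77 genes rose and the median log2 fold change was 0.37.

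The levels of subunits differed within a library. Over the 77 tested subunits of all complexes, the highest level was 206 times the lowest in each Control library and 198 and 168 times in the siSIRT1 libraries. Within a complex and a library, this ratio ran from 67.0 to 98.6 in complex I and from 2.46 to 2.97 in complex II. The SD of the log2 level across subunits was 1.27 in both Control libraries, against 1.29 and 1.26 in siSIRT1. The spread of levels was therefore of like size in both groups. By chromosome, 13 of the 86 genes lie on chromosome 19, 8 on chromosome 11 and 3 on the X chromosome. A named pseudogene was annotated for 47 of the 86 genes in GENCODE release 44, and reads shared with such copies are uncertain.

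Most respiratory chain genes are short. The median coding length was 423 bases over the 81 tested genes with a known one, against 1377 bases over all tested genes. Of the 57 genes with a coding length under 600 bases, 43 rose (median log2 fold change 0.37), where 587 of 1484 other tested genes of such a length did (39.6%, median 0.19). Of the 24 longer ones, 16 rose (median 0.30), where 21.7% of other longer genes did (median 0.06). When each library's trend on transcript length was removed, the median of the 82 genes was 0.17, and it was 0.18 with the trend on coding length removed. The part of length in the change was not tested further.

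**Figure D3:**
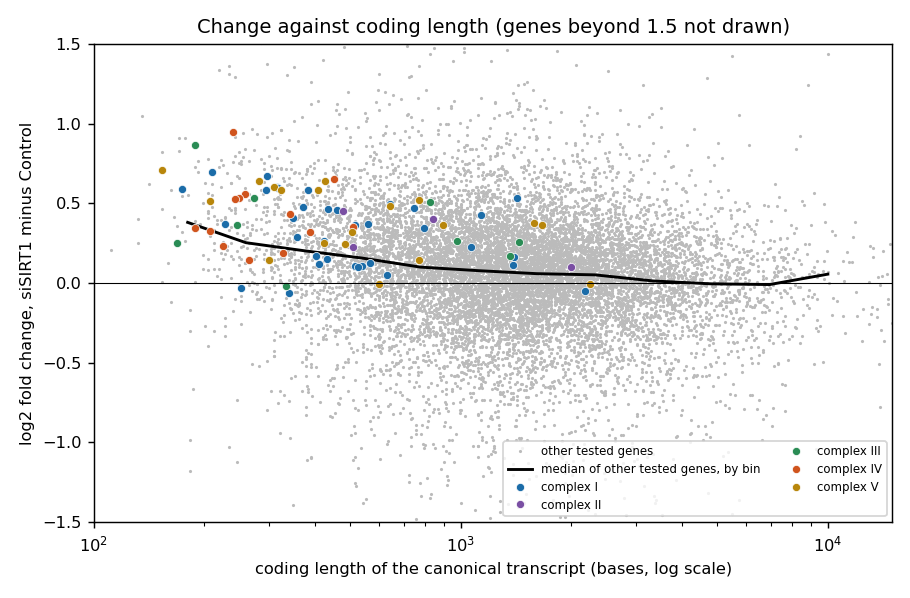
Each point is 1 tested gene, with the coding length of its canonical transcript in bases on a log x axis and its log2 fold change, siSIRT1 minus Control, on the y axis. Coloured points are respiratory chain genes by complex, grey points are other tested genes and the black line is their median by length bin, which is higher for short than for long genes, and most coloured points lie above it.

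Other large protein assemblies gave values for comparison. Of 78 mitochondrial ribosomal protein genes, 36 rose (46.2%) and 2 fell (2.56%), with a median log2 fold change of 0.22. Of 90 tested cytosolic ribosomal protein genes, 45 rose (50%) and 3 fell (3.33%), with a median of 0.20. Of 38 proteasome subunit genes, 18 rose (47.4%) and 0 fell, with a median of 0.22. Over all tested genes 24.0% rose and 13.1% fell. Both siSIRT1 libraries lay above both Control libraries for 74.4%, 74.4% and 86.8% of these groups in turn. The share was 89.0% in the respiratory chain and 43.8% over all tested genes. All 3 medians were above the 0.07 of all tested genes and below the 0.36 of the respiratory chain. Whether these groups differ was not tested.

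**Figure D4:**
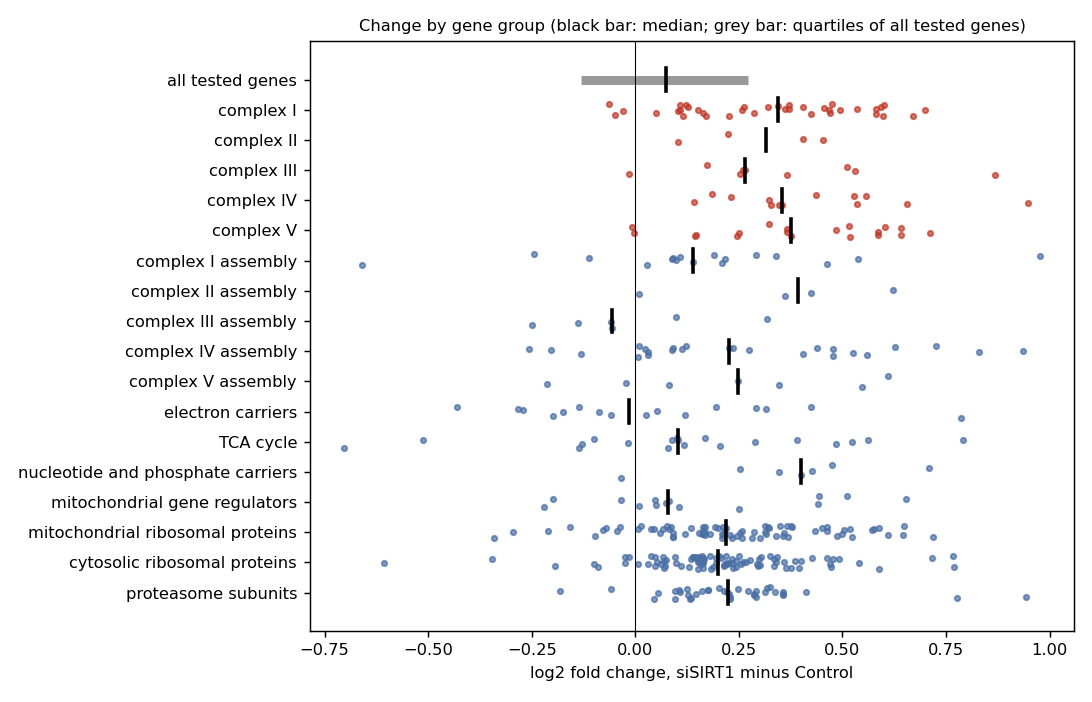
Each point is the log2 fold change, siSIRT1 minus Control, of 1 tested gene, with red for the 5 complexes and blue for other gene groups. The black bars are medians and the grey bar spans the quartiles of all tested genes. The medians of the complexes lie between 0.26 and 0.37, against 0.07 for all tested genes.

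Genes that serve the chain without being matched by the symbols, among them a few subunits under other names, were described from 10 lists. Of their 115 tested genes, 46 rose (40.0%) and 8 fell (6.96%), where 24.0% of all tested genes rose and 13.1% fell, and their median log2 fold change was 0.11. Cytochrome c, CYCS, the carrier between complexes III and IV, rose from 19.96 and 19.70 to 36.0 and 33.9 FPKM (0.79 ± 0.07 SE, adjusted p = 9.89e-05). It led the 16 genes listed for electron carriers, most of which serve the synthesis or binding of ubiquinone. Of the 16, 4 rose (25%) and 2 fell (12.5%), shares near those of all tested genes. COQ10B, a ubiquinone-binding protein, fell from 14.3 and 14.7 to 10.5 and 10.5 FPKM (−0.43 ± 0.08 SE).

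Of 17 genes listed for complex I assembly, 4 rose (23.5%) and 2 fell (11.8%), again near the 24.0% and 13.1% of all tested genes. Among the 4 that rose was NDUFAB1, itself a complex I subunit, whose symbol the rule did not match (0.54 ± 0.07 SE). NDUFAF4 rose from 1.95 and 1.64 to 4.43 and 4.55 FPKM (0.98 ± 0.13 SE), and NDUFAF3 fell from 41.9 and 40.8 to 27.4 and 24.2 FPKM (−0.66 ± 0.08 SE). The proteins of these 2 genes are known to work together early in complex I assembly. Of 25 genes for complex IV assembly, 13 rose (52.0%) and 1 fell (4%), led by HIGD1A, which went from 15.3 and 16.2 to 30.4 and 31.8 FPKM (0.94 ± 0.07 SE). SURF1 was the 1 that fell (−0.26 ± 0.09 SE). Of 4 complex II factors 3 rose, led by SDHAF3 (0.62 ± 0.13 SE). Of 6 complex III factors, BCS1L rose (0.32) and UQCC1 fell (−0.25). Of 7 genes listed for complex V, 4 rose, and C14orf2 rose most (0.61 ± 0.08 SE). C14orf2 and USMG5, which also rose (0.55 ± 0.07 SE), are small subunits of the synthase now named ATP5MJ and ATP5MK.

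Of 19 genes of the tricarboxylic acid cycle and its entry, which supply NADH and succinate, 6 rose (31.6%) and 2 fell (10.5%), near the 24.0% and 13.1% of all tested genes. Citrate synthase, CS, rose from 59.0 and 64.1 to 110 and 105 FPKM (0.79 ± 0.06 SE). Pyruvate carboxylase, PC, fell from 7.08 and 8.11 to 4.01 and 4.55 FPKM (−0.70 ± 0.12 SE). Of 7 carriers that move nucleotides and phosphate between mitochondria and cytosol, 6 rose. VDAC3, a channel of the outer membrane, rose most (0.71 ± 0.07 SE), and SLC25A6, an adenine nucleotide carrier, was at 117 and 107 FPKM against 114 and 104.

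Of 14 tested regulators of mitochondrial genes, 5 rose (35.7%, against 24.0% of all tested genes) and 0 fell. ESRRA, the estrogen-related receptor alpha, went from 19.96 and 19.19 to 32.2 and 30.5 FPKM (0.65 ± 0.07 SE, adjusted p = 2.68e-04). The coactivators PPARGC1B (1.06 and 1.13 to 1.68 and 2.03 FPKM) and PPRC1 (18.9 and 20.5 to 23.9 and 23.3 FPKM) also rose. Their adjusted p was 0.0357 and 0.0297, and PPARGC1B lay close to the limit of 1 FPKM in Control. With median-of-ratios scaling neither passed (adjusted p = 0.0571 and 0.132). NRF1 was at 3.88 and 3.94 FPKM against 4.39 and 3.96, TFAM, which packages mitochondrial DNA, at 5.09 and 4.93 against 5.60 and 5.12, and GABPA at 8.38 and 8.34 against 6.46 and 7.91. None of these 3 passed. PPARGC1A, the best known coactivator of the chain, was at 0.17 to 0.66 FPKM in the 4 libraries and was not tested.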

How the data were processed

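RNA-seq was done on 2 Control and 2 siSIRT1 libraries of PANC-1 cells. The authors deposited 1 table per library of FPKM values for 16878 genes, with no counts. The submitters' processing notes name HISAT, Bowtie2 and RSEM without a role; the build is not given in the sources used here, nor is use of strand. FPKM divides by transcript length and library total, so isoforms and abundant genes can move it.

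Genes averaging 1 FPKM or more were tested with limma 3.58.1 (R 4.3.3, eBayes with trend) on log2(FPKM + 1), two-sided, Benjamini-Hochberg adjusted, threshold 0.05. Fold changes on this scale understate those of low genes. Canonical transcript and coding lengths came from GENCODE release 44. Depth was estimated from steps of 1 read in low values of single-exon genes. Promoters were searched for motifs of 8 or 9 letters, after longer NRF1 and YY1 forms had been tried. The test was checked on simulated data. Members and lists were chosen with earlier results of these data known. Genes named with values are SIRT1, the catalytic and isoform subunits, the 2 largest rises and falls of each complex, chosen regulators and the extremes of each list; others were added after their values were seen. Alternatives were another pseudocount (0.1), no filter, 4 scalings, no variance trend, removal of length, coding length or GC trends (lowess span 0.3), the replicate number as a block, and leaving out each library. The values of 1 member are not reported here, though it counts in the totals.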

Additional observations from a re-analysis of the deposited data

How the results depend on the processing

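The direction of the respiratory chain medians was kept under every alternative run, while their size and the number of calls moved, and the cause was not tested. The main medians of log2 fold change were 0.36 over all tested members and 0.34, 0.31, 0.26, 0.35 and 0.37 for complexes I to V. With quantile normalization the median of the members was 0.29, and those of complexes I to V were 0.27, 0.24, 0.21, 0.31 and 0.30. With median-of-ratios scaling the median of the members was 0.28, and those of complexes I to V were 0.26, 0.23, 0.18, 0.27 and 0.29. With upper-quartile scaling the median of the members was 0.28, and those of complexes I to V were 0.26, 0.23, 0.18, 0.27 and 0.29. With scaling to equal FPKM sums the median of the members was 0.30, and those of complexes I to V were 0.28, 0.25, 0.20, 0.29 and 0.31. With removal of the transcript length trend, with or without the replicate block, the median of the members was 0.17, and those of complexes I to V were 0.14, 0.14, 0.13, 0.13 and 0.25. With removal of the coding length trend (added after the data were seen) the median of the members was 0.18, and those of complexes I to V were 0.15, 0.16, 0.18, 0.18 and 0.29. With removal of the GC trend the median of the members was 0.28, and those of complexes I to V were 0.26, 0.23, 0.19, 0.29 and 0.30. Members that rose numbered 39 with the coding length trend removed, with 3 called lower, and 4 were called lower with the transcript length trend removed and 6 with the replicate block added to it. Of the other genes of the pathway, 46 rose and 8 fell in the main comparison. Without a filter on low values 28 rose (17.2% of all genes did), and with the coding length trend removed 30 did (17.4%). Those that fell numbered 4 without the filter (9.49% of all genes fell) and 4 without the variance trend (11.9%). They numbered 15 with the GC trend removed (18.5%), 14 with the coding length trend removed (17.8%) and 16 with the transcript length trend removed (19.6%). With the block added to the last, 17 fell (20.6%). Leaving out each library in turn gave 2691 to 4608 for all genes called, 38 to 59 members that rose, with the lowest without Control replicate 2, 28 to 40 other pathway genes that rose and 4 to 10 that fell. The member median then ran from 0.31 to 0.41, those of complexes I to V from 0.28 to 0.37, 0.29 to 0.34, 0.23 to 0.31, 0.30 to 0.49 and 0.36 to 0.41, and the SIRT1 log2 fold change from −2.02 to −1.90. A lone library in a group was assumed to vary like the others. Members with a log2 fold change below 0 numbered 6 in the main comparison, 16 with the transcript length trend and 21 with the coding length trend removed. With the latter these included UQCR11 (−0.15), COX6C (−0.11), COX7C (−0.033) and COX8A (−0.033), the 4 genes that rose in the main comparison and turned sign. Signs that turned are given next for some of the genes named, not for all members, and the cause was not tested. With the transcript length trend removed, with or without the block, the sign turned for COX6A1 (−0.082), NDUFB7 (−0.15), NDUFB9 (−0.13), NDUFS8 (−0.18) and UQCRB (0.00089). With the coding length trend removed the sign turned for COX6A1 (−0.079), COX6B2 (−0.17), NDUFB7 (−0.10), NDUFB9 (−0.058), NDUFS8 (−0.092) and TFAM (−0.037). With quantile normalization the sign turned for NDUFS8 (−0.0075). With median-of-ratios scaling the sign turned for NDUFS8 (−0.038). With upper-quartile scaling the sign turned for NDUFS8 (−0.031). With equal FPKM sums the sign turned for NDUFS8 (−0.012). With the GC trend removed the sign turned for NDUFS8 (−0.012) and NRF1 (−0.011). Over the fits without 1 library, ATP5J2-PTCD1 ran from −0.077 to 0.062, ATP5S ran from −0.079 to 0.072, NDUFA3 ran from −0.10 to 0.043, NDUFA7 ran from −0.22 to 0.10, NDUFS8 ran from −0.091 to 0.19, SLC25A6 ran from −0.10 to 0.031, UQCRB ran from −0.086 to 0.053. With the replicate number as a block, 64 members rose and 0 fell (28.6% of all genes rose and 15.7% fell). The number is not said to mark a shared culture or day. Same-numbered libraries deviated together with a correlation of 0.12 over all tested genes and 0.16 over the members. With 2 libraries per group, these values cannot tell whether such libraries shared a culture or day. Members that rose numbered 46 to 59 under the other alternatives that kept every library, apart from 45 with median-of-ratios scaling, 41 with the transcript length trend removed and 44 with the block added to that. At the estimated depths, the 4 members below a mean of 1 FPKM were not tested.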

Other observations

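The tables also list MTRNR2L genes, nuclear copies of a stretch of the mitochondrial 16S ribosomal RNA gene, which were chosen here after their values were seen. These copies are nearly identical to each other and to mitochondrial RNA, so the assignment of reads among them is uncertain. MTRNR2L2 was at 11116 and 10944 FPKM in Control, against 9925 and 8769 in siSIRT1 (log2 fold change −0.24 ± 0.12 SE, adjusted p = 0.154 with limma, and 4.87e-04 to 1.0 over the alternatives). MTRNR2L8 was at 6976 and 7030 FPKM against 6339 and 5621 (adjusted p = 0.134, and 1.29e-05 to 0.342 over the alternatives). MTRNR2L6 was at 352 and 393 FPKM against 325 and 303, and was called lower (−0.24 ± 0.07 SE, adjusted p = 0.0292, and 0.00311 to 0.0992 over the alternatives). MTRNR2L1 was at 2495 and 2621 FPKM against 2618 and 2295, with overlapping groups. MTRNR2L9 (log2 fold change −0.21), MTRNR2L4 (−0.07), MTRNR2L10 (−0.06), MTRNR2L5 (−0.006) and MTRNR2L3 (0.006) were also tested and not called. Of all tested genes 13.1% were called lower.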
